A study of Mus musculus with 2 samples.

Results

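The antioxidant and thiol redox enzymes of the adult mouse heart were examined in poly(A)-selected RNA. The set held 35 named genes, all of which were found by symbol among the 43346 genes of the deposited tables. It covers enzymes that remove superoxide and peroxides, the thioredoxin, glutathione and glutaredoxin systems that keep them reduced, methionine sulfoxide reductases, inducible detoxifying enzymes, and the regulators Nfe2l2 and Keap1. The members were listed by function and not by level. The study has 1 group of 2 biological replicates, called replicate 1 and replicate 2, both of heart tissue from C57BL/6J mice aged 8 weeks and labelled as pooled males and females from a litter. C57BL/6J is an inbred laboratory strain that is known to carry a deletion in Nnt, a mitochondrial transhydrogenase, and the labels name no transgene or treatment. RNA above 200 nt was sequenced as stranded pairs of 76 nt. There is thus no treated or mutant group, and differences between the replicates describe these 2 libraries.

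Heart muscle takes most of its energy from mitochondrial respiration, which leaks electrons to oxygen and so forms superoxide. Superoxide dismutases turn superoxide into hydrogen peroxide, which catalase, glutathione peroxidases and peroxiredoxins then reduce to water. Glutathione peroxidases draw on glutathione, and most peroxiredoxins draw on thioredoxin, and both pools are restored with electrons from NADPH. Cytosol and mitochondria each hold their own isoenzymes for several of these steps, encoded by separate nuclear genes. NRF2, the product of Nfe2l2, is a transcription factor that binds antioxidant response elements in gene promoters, and KEAP1 holds it at a low level in unstressed cells.

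Several members catalyse through selenocysteine, an amino acid that is read from TGA, otherwise a stop codon. The codon can be seen in the transcripts themselves. A script read the coding sequence of each of the 35 members from GENCODE M21 and found a TGA in frame before the last codon in 5 of them. They are the peroxidases Gpx1, Gpx3 and Gpx4 and the thioredoxin reductases Txnrd1 and Txnrd2. Each is shown 5′ to 3′ in codons of the sense strand, with the in-frame TGA in capitals. In the 3 peroxidases the codon lies inside the reading frame, at codon 47 of 202 in Gpx1, 73 of 227 in Gpx3 and 73 of 198 in Gpx4, and in the 2 reductases it is the last codon but 2, at 498 of 500 in Txnrd1 and 526 of 528 in Txnrd2.
Gpx1: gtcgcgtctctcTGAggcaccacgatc
Gpx3: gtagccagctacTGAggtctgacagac
Gpx4: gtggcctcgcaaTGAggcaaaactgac
Txnrd2: gtgactggttgcTGAggctaa
Txnrd1: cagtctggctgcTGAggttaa
On GRCm38, Gpx1 lies on chromosome 9 from 108338903 to 108340343 and Gpx4 on chromosome 10 from 80047166 to 80056439, both on the plus strand. In all 5 windows the codon after TGA starts with GG. The remaining 30 members, Gpx7 and Gpx8 among them, held no such codon.

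The mitochondrial and the cytosolic thioredoxin share their active site, a pair of cysteines around glycine and proline after a tryptophan. It is shown with those codons in capitals, at codon 89 of 167 in Txn2 and 31 of 106 in Txn1. The pair was chosen because, by TPM over all transcripts, its genes differ most in level among the mitochondrial and cytosolic pairs below.
Txn2: gcacagTGGTGTGGCCCCTGCaagatc
Txn1: gctacgTGGTGTGGACCTTGCaaaatg

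The libraries held 57464573 estimated counts in replicate 1 and 62912053 in replicate 2, of which 98.3% lay on genes in each. Heart muscle genes were abundant in both: the 8 cardiac muscle markers, such as Myh6 and Tnnt2, summed to 32881 TPM in replicate 1 and 38107 TPM in replicate 2. TPM, a length-normalised abundance, divides each gene's counts by its effective length and scales every library to the same sum. Several features set the libraries apart. Counts of Xist were 13725 in replicate 1 and 13 in replicate 2, and the Y-linked genes Ddx3y, Eif2s3y, Kdm5d and Uty had 0 in replicate 1, against 458 to 922 in replicate 2, which goes against a label of mixed sex for each. Genes of the mitochondrial genome took 46.5% of TPM in replicate 1 and 30.6% in replicate 2. Markers of lung epithelium summed to 0.89 TPM in replicate 1 and 2570 TPM in replicate 2, and those of red cells to 7593 and 94907 TPM, in the same order. In tissue RNA, fewer cells of a type and less RNA per cell cannot be told apart.

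All 35 members reached at least 1 TPM in both replicates, beside 11565 of all 43346 genes in replicate 1 and 11935 in replicate 2. Their TPM ran from 3.24 (Gclc) to 372.94 (Gpx4) in replicate 1 and from 3.51 (Gclc) to 479.54 (Gpx4) in replicate 2, with a median member at 21.08 and 21.45 TPM. The median of all genes at 1 TPM or more was 6.73 TPM in replicate 1 and 7.14 TPM in replicate 2. The members' share of all TPM was 0.226% for replicate 1 and 0.280% for replicate 2, or 0.437% and 0.414% when genes of the mitochondrial genome are left out of the sum. The 5 most abundant members, Gpx4, Prdx3, Prdx2, Sod1 and Prdx5, held 52.1% of the members' TPM in replicate 1 and 49.95% in replicate 2. The order of the next members differed between the libraries. By deposited TPM, 8 members reached 100 TPM in replicate 1 and 9 in replicate 2. For the setting among all genes, Sod2 at 92.62 TPM ranked 555 in replicate 1, and Prdx6 at 99.10 TPM ranked 635 in replicate 2. Prdx1 passed only in replicate 1, and Sod2 and Gpx1 only in replicate 2. With TPM rescaled without genes of the mitochondrial genome, each of these passed 100 TPM in both libraries. Prdx1 then had 262 and 131 TPM, Sod2 179 and 170 TPM, and Gpx1 143 and 252 TPM.

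**Figure D1:**
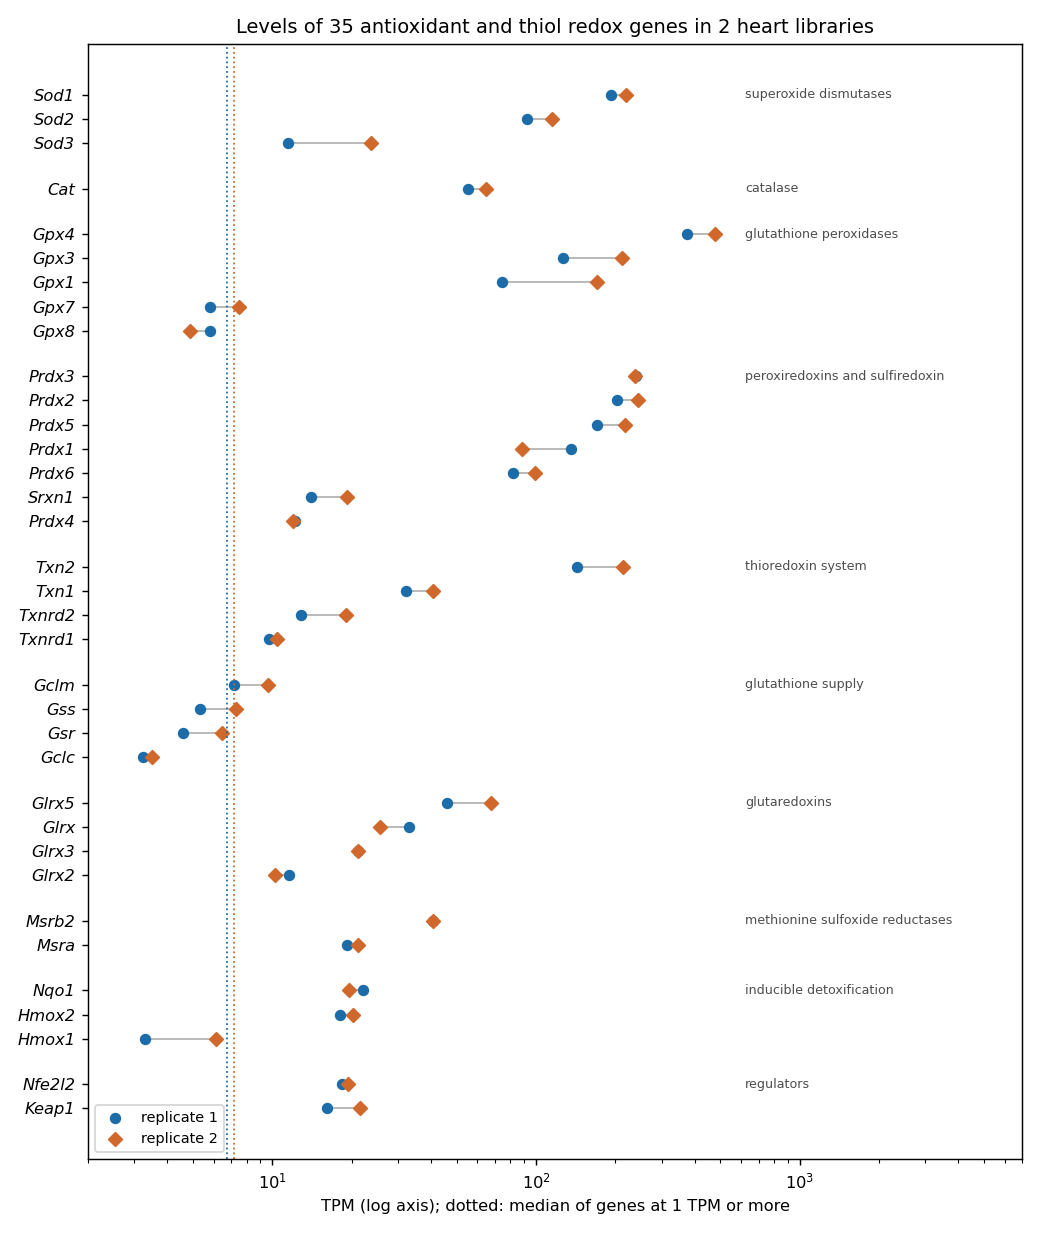
Level of each member in TPM on a log axis, grouped by role, with a circle for replicate 1 and a diamond for replicate 2 (n = 2). Gpx4 stands highest at 372.94 and 479.54 TPM, and the 4 genes of glutathione supply all stand below 10 TPM.

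The 3 superoxide dismutases differ in where they work, and their genes differed in level by more than the spread between the libraries. Sod2, the manganese enzyme of the mitochondrial matrix, had 92.62 TPM in replicate 1 and 114.60 TPM in replicate 2. Sod1, the copper and zinc enzyme of the cytosol, had 193.02 and 219.72 TPM, which placed it higher than Sod2 in each library. Sod3, the form secreted to the extracellular matrix, had 11.42 TPM in replicate 1 and 23.63 TPM in replicate 2. Sod3 was thus lower than Sod1 in both, by 3.61 ± 0.59 on the log2 scale of TPM + 0.5 (SD, n = 2). Cat, which encodes the catalase of peroxisomes, had 55.06 and 64.56 TPM, below Sod2 in both libraries.

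Among the glutathione peroxidases, Gpx4 led. It encodes the enzyme that reduces lipid peroxides in membranes, and it averaged 426 ± 75.4 TPM (SD, n = 2), which placed it at rank 152 and 153 of all genes. Gpx3, the form secreted to plasma, had 126.32 TPM in replicate 1 and 212.65 TPM in replicate 2. Gpx1, the soluble peroxidase of cytosol and mitochondria, had 74.19 TPM in replicate 1 and 170.12 TPM in replicate 2, the widest gap in TPM of any member by ratio. It was lower than Gpx4 by 1.91 ± 0.59 on the log2 scale, in both libraries. Gpx7 and Gpx8, peroxidases of the endoplasmic reticulum, had 5.79 and 5.82 TPM in replicate 1 and 7.50 and 4.89 TPM in replicate 2. Their order turned between the libraries, so these neighbours did not differ beyond the spread (log2 0.28 ± 0.41).

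The peroxiredoxins, which reduce peroxides through a cysteine, were the role with the largest summed level, 857 TPM in replicate 1 and 917 TPM in replicate 2 with Srxn1 included. On coding transcripts alone the sums were 706 and 724 TPM, against 580 and 865 TPM for the glutathione peroxidases, so that the order turned in replicate 2. Prdx3, the mitochondrial form, had 240.14 and 238.18 TPM, the steadiest of the abundant members by deposited TPM only. With TPM rescaled without genes of the mitochondrial genome, Prdx3 had 464 TPM in replicate 1 and 353 TPM in replicate 2. Prdx2, a cytosolic form that is also abundant in red cells, had 202.43 and 243.00 TPM. Prdx3 was higher than Prdx2 in replicate 1 and lower in replicate 2 (log2 0.11 ± 0.19), so the top of this group has no fixed order. Prdx5, found in mitochondria, cytosol and peroxisomes, had 170.64 and 216.84 TPM and stood below Prdx3 in both libraries, by a log2 ratio of -0.31 ± 0.25. Prdx1, a cytosolic form, had 135.77 TPM in replicate 1 and 88.39 TPM in replicate 2. Prdx6, a cytosolic form that is reduced through glutathione, had 82.07 and 99.10 TPM. Prdx4, the form of the endoplasmic reticulum, had 12.20 and 11.97 TPM, below Prdx1 by 3.13 ± 0.42 on the log2 scale. Srxn1, sulfiredoxin, which repairs overoxidised peroxiredoxins, had 14.05 and 19.14 TPM.

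In the thioredoxin system the mitochondrial carrier was far more abundant than the cytosolic. Txn2 had 143.45 TPM in replicate 1 and 213.44 TPM in replicate 2, against 32.03 and 40.53 TPM for Txn1. The reductases that recharge them with NADPH were low, Txnrd2 of mitochondria at 12.88 and 19.11 TPM and Txnrd1 of the cytosol at 9.70 and 10.44 TPM. Each reductase gene was therefore less abundant than its own carrier's gene in both libraries.

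Glutathione supply was the role with the lowest levels, and all 4 genes were under 10 TPM in both libraries. Gclc, the catalytic subunit of glutamate-cysteine ligase, which makes the first step of glutathione synthesis, was the lowest of all members in each library, at 3.24 and 3.51 TPM. Gclm, its modifier subunit, had 7.16 and 9.67 TPM, higher than Gclc by a log2 ratio of 1.19 ± 0.22, or 0.29 ± 0.16 with protein-coding transcripts only. Gclc has 1 transcript, a coding one, so that setting could lower only Gclm. Gss, glutathione synthetase, had 5.32 and 7.30 TPM. Gsr, the reductase that restores oxidised glutathione, had 4.60 and 6.47 TPM.

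Glutaredoxins use glutathione to reduce mixed disulfides or to carry iron-sulfur clusters. Glrx5, a mitochondrial protein of iron-sulfur cluster assembly, was the highest in both libraries at 45.83 and 67.44 TPM. Glrx, the cytosolic thioltransferase, had 33.10 and 25.66 TPM, and Glrx3, a cytosolic iron-sulfur protein, had 21.08 and 21.07 TPM. Glrx2, a mitochondrial thioltransferase, was the lowest at 11.56 and 10.28 TPM. Of the methionine sulfoxide reductases, Msrb2 of mitochondria had 40.66 and 40.76 TPM and Msra, which reduces the other stereoisomer in both compartments, had 19.26 and 21.17 TPM (log2 ratio 0.99 ± 0.09).

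Among the inducible enzymes, Nqo1, a quinone reductase, had 22.09 and 19.45 TPM. Hmox2, the constitutive heme oxygenase, had 18.06 and 20.30 TPM, and Hmox1, the inducible form, had 3.30 and 6.11 TPM. Hmox1 stood below Hmox2 in both libraries by a log2 ratio of -1.97 ± 0.45. The regulators were nearly level: Nfe2l2 had 18.32 TPM in replicate 1 and 19.32 TPM in replicate 2, and Keap1 had 16.10 and 21.45 TPM. Their order turned between the libraries, with a log2 ratio of 0.02 ± 0.23.

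The mitochondrial members had a higher median than the cytosolic members in both libraries, while the summed levels ran the other way. Members were classed by the compartment their protein is best known for. The 7 mitochondrial members, Sod2, Prdx3, Txn2, Txnrd2, Glrx2, Glrx5 and Msrb2, had a median of 45.83 TPM in replicate 1 and 67.44 TPM in replicate 2. The 13 cytosolic members, Sod1, Prdx1, Prdx2, Prdx6, Txn1, Txnrd1, Gclc, Gclm, Gss, Glrx, Glrx3, Nqo1 and Srxn1, had a median of 22.09 TPM in replicate 1 and 21.07 TPM in replicate 2. The log2 ratio of the medians was 1.05 in replicate 1 and 1.68 in replicate 2, with a mean of 1.37 ± 0.44 (SD, n = 2). Gclc, Gclm, Gss, Nqo1 and Srxn1 of the cytosolic class are in none of the mitochondrial over cytosolic pairs below. Each lay at or below the cytosolic median in both libraries, so the gap in medians rests in part on which functions that class holds. Medians without these genes were not computed. The summed level was 587 and 704 TPM for the mitochondrial members and 761 and 807 TPM for the cytosolic members, a log2 ratio of -0.29 ± 0.13. The ranges of the classes overlapped: mitochondrial members ran from 11.56 to 240.14 TPM in replicate 1 and cytosolic members from 3.24 to 202.43 TPM.

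The sign of the summed ratio rests on how genes are classed and on which transcripts are counted. The 5 members known from both compartments, Gpx1, Gpx4, Gsr, Prdx5 and Msra, were kept apart and summed to 642 TPM in replicate 1 and 894 TPM in replicate 2, more than the mitochondrial class in each. Counted as mitochondrial they turned the summed log2 ratio to 0.84. With transcripts annotated as protein-coding only, a setting chosen after seeing the data, the sums were 579 and 697 TPM for the mitochondrial members and 608 and 611 TPM for the cytosolic members. No test over members was made, since members are not replicates, and 2 libraries allow no p under 0.5 in an exact sign test (two-sided).

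Pairs of related genes give a comparison within each library, free of library scaling. A pair was taken to differ beyond the spread when both libraries had the same sign and the mean log2 ratio of TPM + 0.5 exceeded its SD. Of 8 mitochondrial over cytosolic pairs, 7 did so, 5 with the mitochondrial gene higher and 2 with the cytosolic gene higher. The mitochondrial gene was higher for the thioredoxins, where the log2 ratio of Txn2 over Txn1 was 2.26 ± 0.17, a 4.80-fold difference. It was higher for Prdx3 over Prdx6 (1.40 ± 0.20) and over Prdx1 (1.12 ± 0.43), for Glrx5 over Glrx3 (1.38 ± 0.39) and for Txnrd2 over Txnrd1 (0.62 ± 0.32). The cytosolic gene was higher for the dismutases, with Sod2 over Sod1 at -0.996 ± 0.084, and for the thioltransferases, with Glrx2 over Glrx at -1.38 ± 0.14. With protein-coding transcripts only, Prdx3 over Prdx6 was 3.67 ± 0.75 and Glrx2 over Glrx was -2.46 ± 0.32. Prdx3 and Glrx each have 1 transcript, a coding one, so this setting could lower only Prdx6 and Glrx2. Prdx3 over Prdx2 was the pair without a fixed order. Over all 19 pairs compared, which include Cat over Gpx1 and Nfe2l2 over Keap1, 16 differed beyond the spread. The rule was not applied to pairs of unrelated genes, so no general share stands beside these counts, which describe the listed pairs only. The pairs were chosen with earlier results of these data known, and Prdx3 enters several of them.

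**Figure D2:**
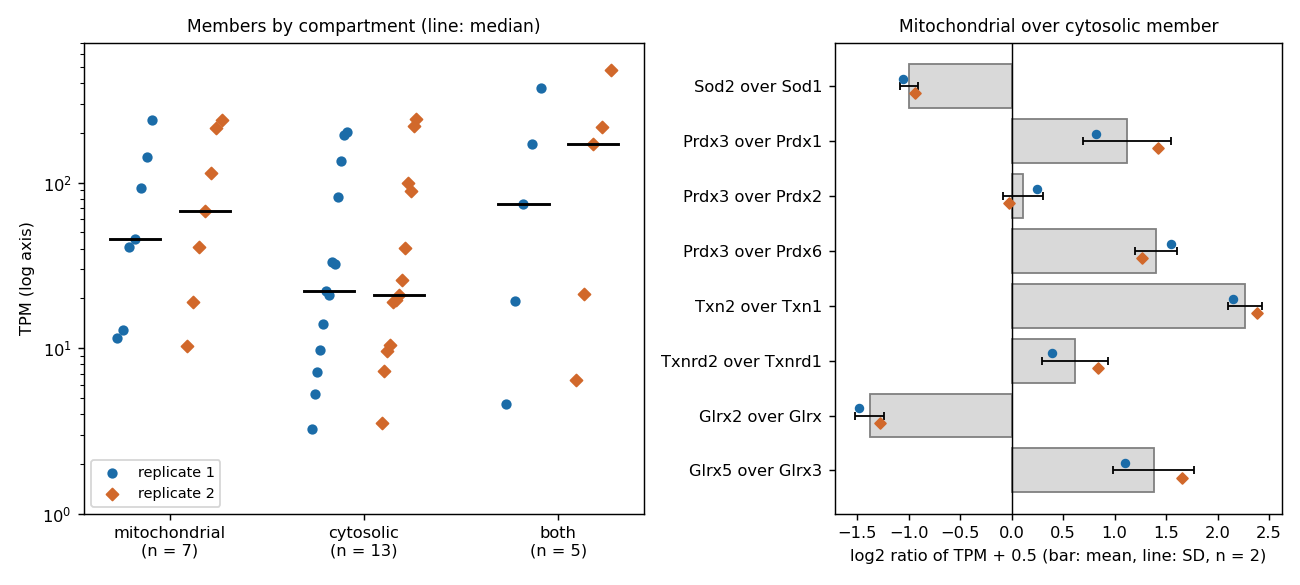
Left, TPM of members by compartment on a log axis, with circles for replicate 1, diamonds for replicate 2 and a line at the median. Right, log2 ratio of TPM + 0.5 of 8 mitochondrial over cytosolic pairs, with the mean as a bar, the SD as a line (n = 2) and a point for each library, where Txn2 over Txn1 is the largest at 2.26 and Sod2 over Sod1 and Glrx2 over Glrx lie below 0.

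Levels between genes were compared per length because gene length moves counts. Sod2 had 20921 estimated counts in replicate 1 and 27315 in replicate 2, and Sod1 had 5319 and 6485. The annotated transcript was 3824 nt for Sod2 and 646 nt for Sod1, and per length the order turned to Sod1. The log2 ratio by counts was 2.03 for Sod2 over Sod1, against -0.996 by TPM. The annotated lengths also matter: the deposited tables use GENCODE M4, in which Sod2 has 3824 nt and Glrx5 has 930 nt, and the Sod2 and Glrx5 transcripts of GENCODE M21 have 5861 and 2925 nt. TPM with the longer models was not computed.

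Protein-coding transcripts held nearly all TPM of most members, with 7 exceptions, namely Prdx6, Srxn1, Gclm, Prdx2 and Gss of the cytosol, Glrx2 of mitochondria, and Gsr of both. Of the 35 members, 13 had 1 transcript in the tables and 22 had 2 or more. Coding transcripts held at least 95% of the gene's TPM in both libraries for 28 members, those 13 included. They held under 50% in both for 3, namely Prdx6, Srxn1 and Glrx2. The same shares over all genes were not computed. For Prdx6 the coding share of TPM was 15.4% in replicate 1 and 26.8% in replicate 2. The rest of Prdx6 was assigned to non-coding processed transcripts (54.0% and 53.9%) and to transcripts annotated for nonsense-mediated decay (29.5% and 18.4%), so that coding Prdx6 stood at 12.64 and 26.57 TPM. For Prdx2, retained-intron transcripts held 34.8% and 42.4% of TPM, and coding Prdx2 stood at 131.92 and 139.92 TPM. On coding transcripts alone Prdx3 was higher than Prdx2 in both libraries, with a mean log2 ratio of 0.81. Prdx3 has 1 transcript in the tables, a coding one, so this setting could lower only Prdx2.

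For Srxn1 the share depends on the unit. A non-coding transcript of 375 nt held 50.6% of Srxn1 TPM in replicate 1 and 54.6% in replicate 2, and all non-coding Srxn1 transcripts together held 9.09% and 15.1% of its estimated counts. Coding Srxn1 was 5.75 TPM in replicate 1 and 5.65 TPM in replicate 2, closer together than the gene totals of 14.05 and 19.14 TPM. For Glrx2 the coding share of TPM was 40.8% and 49.0%, with retained-intron transcripts at 47.9% and 21.5%. For Gclm it was 52.2% and 49.7%. The division of reads among overlapping transcripts is an estimate, and short transcripts gain most when counts are divided by effective length.

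The leading transcript, the one with the largest share of TPM, was the same in both libraries for 19 of the 22 members with several transcripts. It changed for Gpx1, Gclm and Glrx2. In Gpx1, a coding transcript of 653 nt led in replicate 1 with 38.45 TPM, against 54.38 TPM in replicate 2, and a coding transcript of 1072 nt led in replicate 2 with 69.97 TPM, against 34.08 TPM in replicate 1. Another coding transcript of Gpx1, of 787 nt, had 1.35 TPM in replicate 1 and 44.97 TPM in replicate 2. In Gpx4 a coding transcript of 959 nt held 96.8% and 97.4% of TPM.

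**Figure D3:**
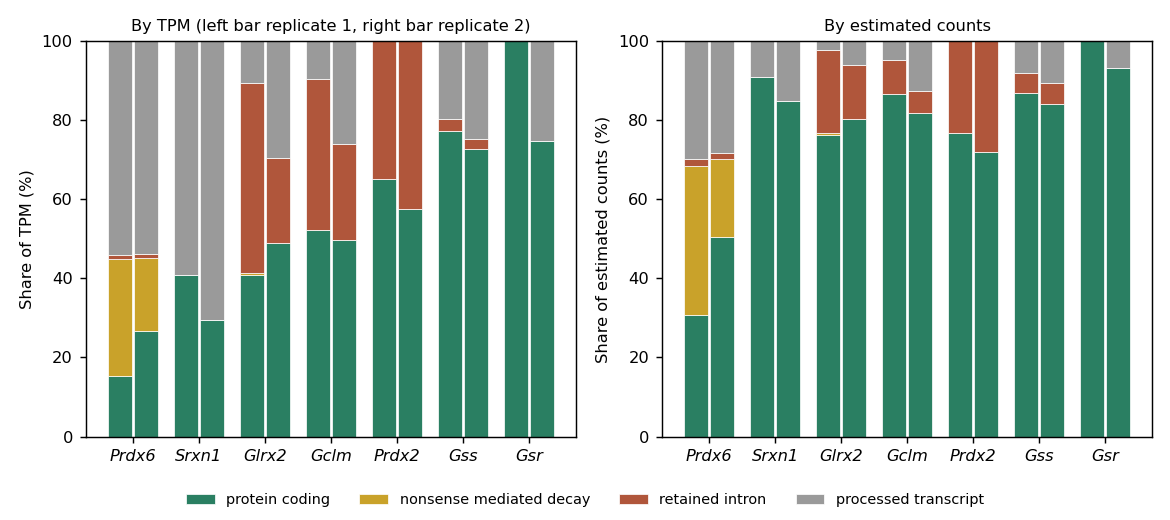
Share of each gene's TPM (left) and estimated counts (right) by annotated transcript class, in percent, for 7 members with a coding share of TPM below 80% in at least 1 library, with the left bar of a pair for replicate 1 and the right bar for replicate 2. Prdx6 has the smallest coding share of TPM at 15.4% and 26.8%, and for Srxn1 the coding share is below 50% by TPM and above 80% by counts.

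Between the libraries most members lay close together, and Gpx1 alone reached a 2-fold difference. The ratio is replicate 1 over replicate 2 of CPM, counts scaled to library size, with TMM factors, which set the library sizes from the bulk of genes, and with 0.5 added. A positive log2 ratio means higher in replicate 1. The median absolute log2 ratio was 0.19 for the 35 members and 0.32 for all 16145 genes with at least 20 counts, many of which have fewer counts than any member. The median log2 ratio was -0.03 for the members and 0.01 for all genes, with 20 members below 0, beside 48.8% of all genes, and 15 above. At 2-fold or more, 1 member, Gpx1, was lower in replicate 1, beside 622 of all genes (3.85%), and no member was higher, beside 192 (1.19%). At 1.5-fold or more, 3 members were lower, Gpx1, Sod3 and Hmox1, beside 12.1% of all genes, and 1 was higher, Prdx1, beside 9.44%. The members are well counted, from 558 counts over both libraries upward, and of the 10001 genes with at least that many, 2.29% were 2-fold lower in replicate 1. No p-value is given for these ratios, since each library is the whole of its replicate, and the intervals cover counting error only. With TPM rescaled without genes of the mitochondrial genome, 495 genes were lower and 489 higher in replicate 1, so the excess of lower genes depends on the scaling.

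Gpx1 was counted 2984 times in replicate 1 and 7435 times in replicate 2, a ratio of 0.48 with a 95% interval of 0.46 to 0.50. After subtraction of the median ratio of genes of like GC content, its log2 ratio was -0.73 in place of -1.05, inside the 2-fold limit. After that subtraction no member was 2-fold lower, beside 3.25% of genes, or 2-fold higher, beside 0.648%. With TPM rescaled without genes of the mitochondrial genome the log2 ratio of Gpx1 was -0.81. Sod3 had 2399 and 5239 counts, a log2 ratio of -0.86, and by deposited TPM it passed the limit at -1.02. Hmox1 had 289 and 562 counts, a log2 ratio of -0.65. Gpx3 had 10950 and 19510 counts, a log2 ratio of -0.58. On the other side, Prdx1 had 9989 and 7188 counts, a log2 ratio of 0.73, and Glrx had 2356 and 1936 counts, a log2 ratio of 0.53. The 5 most abundant members had log2 ratios of -0.19 (Gpx4), 0.18 (Prdx3), -0.02 (Prdx2), -0.03 (Sod1) and -0.24 (Prdx5), and Txn2, next in level, had -0.41.

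**Figure D4:**
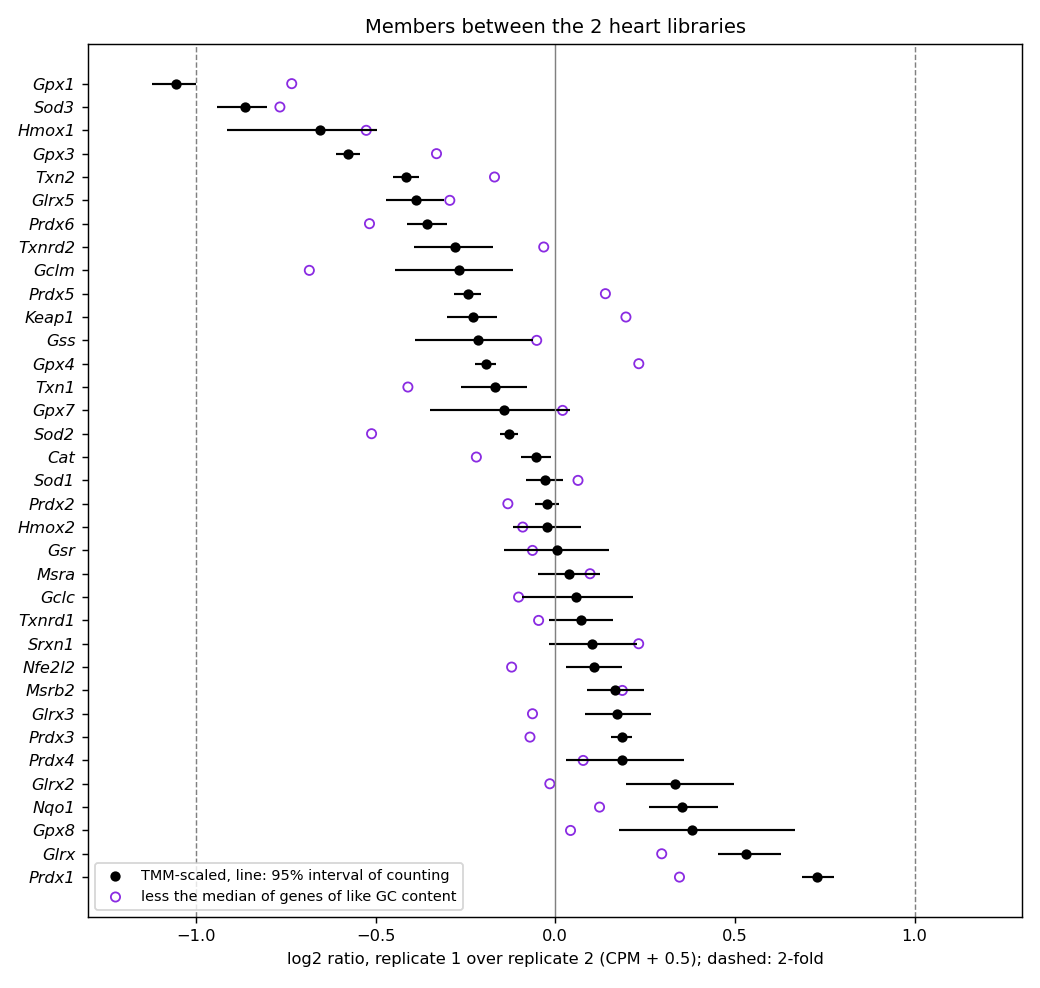
Log2 ratio of replicate 1 over replicate 2 for each member, with the 95% interval of counting as a line, and open circles after subtraction of the median of genes of like GC content. Gpx1 alone reaches the dashed 2-fold limit before that subtraction, and no member does after it.

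The lists of red cell, lung epithelium, adipocyte and immune markers each held 4 to 8 genes that were at least 2-fold lower in replicate 1. The lists of other cell types held at most 1, and of all genes 3.85% were that much lower. Of the red cell markers, 7 of 8 were at least 2-fold lower in replicate 1, all but Epb42, with the globin gene Hba-a2 at 3475 and 43157 TPM. Of the lung epithelium markers 8 of 8 were lower, with the secretoglobin gene Scgb1a1 at 0.18 and 1567 TPM, and Scgb3a2, Sftpb and Sftpa1 were at 0 counts in replicate 1. Of the adipocyte markers 6 of 8 were lower (Adipoq, Plin1, Cidec, Retn, Cfd and Ucp1), and of the immune markers 4 of 8 (Cd74, H2-Ab1, Cd79a and Cd3e). Adipocyte markers summed to 305 TPM in replicate 1 and 651 TPM in replicate 2, and immune markers to 193 and 408 TPM. Of 8 cardiac muscle markers and 6 endothelial markers, none was 2-fold apart, with endothelial sums of 184 and 186 TPM. Fibroblast markers summed to 403 and 387 TPM, with Lum 2-fold higher in replicate 1, and smooth muscle markers to 481 and 462 TPM, with Cnn1 2-fold lower. By their medians the red cell, lung epithelium, adipocyte and immune markers were lower in replicate 1, as were Gpx1, Sod3, Hmox1 and Gpx3, while endothelial, fibroblast and smooth muscle markers had median log2 ratios of 0.39, 0.15 and -0.34. The part of any of these cells in the members' ratios was not tested. The difference in Xist and Y-linked counts also coincides with every ratio between the libraries and cannot be told apart from it. Prdx2, a member known to be abundant in red cells, had a log2 ratio of -0.02 and Gpx1 had -1.05, beside a red cell marker median of -3.27. The part of red cells in either ratio was not tested.

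The ratios also moved with base composition. GC content of the members' main transcripts ran from 42.1% to 59.0%, and the 18 members at or above its median had a median log2 ratio of -0.22, against 0.07 for the 17 below it. Across the 35 members Pearson's r was -0.60 and Spearman's rho -0.63, and across 16048 genes r was -0.49 and rho -0.61. All points share the same pair of libraries, so these values are descriptions. In 20 classes of GC content, the median gene of the lowest class had a log2 ratio of 0.51, and that of the highest -0.51. After subtraction of the median of 50 such classes, the median absolute ratio was 0.14 for members and 0.21 for all genes, and at 1.5-fold or more 3 members were lower in replicate 1, Sod3, Gpx1 and Gclm, beside 9% of genes, and none was higher, beside 3.1%. Sod2 and Gclm have GC contents of 42.2% and 42.1%, and their log2 ratios of -0.13 and -0.27 became -0.51 and -0.68. Their GC content was read from GENCODE M21 transcripts of 5861 and 5589 nt, against 3824 and 4841 nt in the models that were counted. The GC content of the shorter models was not computed. Gpx4, at 58.8% GC, moved the other way, to 0.23 in place of -0.19. Prdx1, at 42.3% GC, had 0.35 in place of 0.73.

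**Figure D5:**
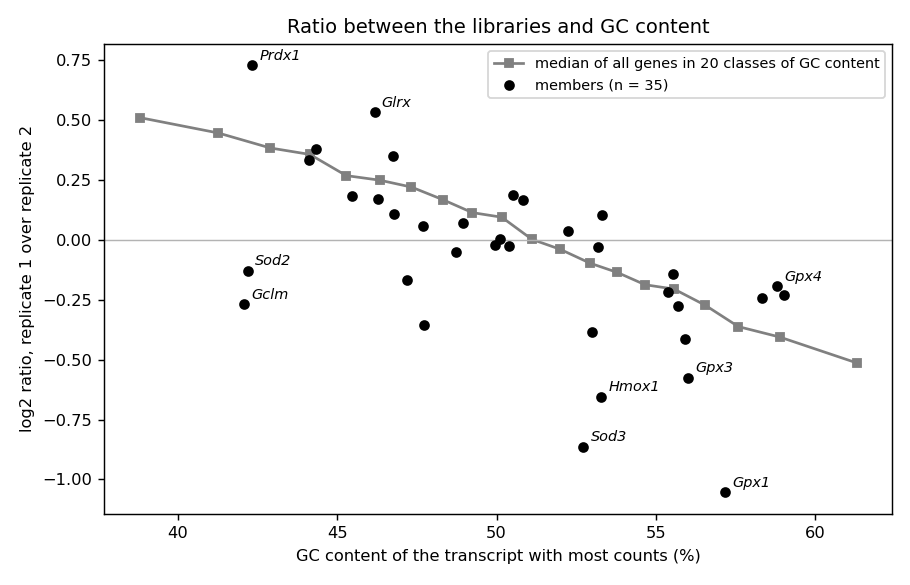
Log2 ratio of replicate 1 over replicate 2 against GC content of the transcript with most counts, in percent, for 35 members (points) and as the median of all genes in classes of GC content (line). The line falls with GC content, and Prdx1 lies above it while Gpx1, Sod3, Sod2 and Gclm lie below.

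The promoters of the members were searched for the core of the antioxidant response element, the letters TGACNNNGC on either strand, in the window from 250 bases before to 50 bases after each gene's start in RefSeq on GRCm38.p6. Of the 35 members, 29 had a promoter in the table. The core was present in 7 of these 29 genes (24.1%), beside 3781 of 27025 genes (14.0%). Some genes have several promoters, and by promoter it was in 7 of the members' 40 (17.5%), beside 12.4% of all 32851. Gclc, Gsr, Hmox1, Msra, Prdx6 and Sod3 had no entry. The 7 matches are shown because the set includes regulators and inducible genes, each as 30 bases in the direction of the motif, which is the minus strand of the chromosome in all 7, with the core in capitals.
Gclm, chr3:122245412-122245441: tcgtgagagtTGACGGTGCgcccgggagcg
Msrb2, chr2:19371656-19371685: caTGACGCTGCcaccaacgggtttcctccc
Nfe2l2, chr2:75704884-75704913: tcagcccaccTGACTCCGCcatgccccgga
Prdx1, chr4:116685455-116685484: ctacgggggaTGACTCAGCgctttccctgg
Sod1, chr16:90220695-90220724: ggcctgagtcTGACCACGCccaccttggca
Srxn1, chr2:152105541-152105570: tgtctcactcTGACCTAGCtgcccactgcc
Txnrd1, chr10:82859103-82859132: cgtgtcagaaTGACAAAGCaaaaatccagt
The Prdx1 match also holds TGACTCA, the letters bound by AP-1 factors. These 7 genes spanned a wide range of level, from Sod1 at 206 ± 18.9 TPM and Prdx1 at 112 ± 33.5 TPM to Txnrd1 at 10.1 ± 0.52 TPM and Gclm at 8.42 ± 1.77 TPM. In the gene's own direction, the core began 240 bases before the RefSeq start in Nfe2l2, 134 in Gclm, 133 in Prdx1, 92 in Txnrd1 and 56 in Sod1, and at base 29 after it in Srxn1 and 40 in Msrb2. A match describes letters in a window, and binding was not measured.

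Genes around the members gave the wider setting. Beside the counts of list genes at 1 TPM stand 11565 of all 43346 genes in replicate 1 and 11935 in replicate 2. In the list of NADPH supply, which feeds both thiol systems, genes of mitochondrial proteins had the highest levels. Idh2, the mitochondrial NADP-dependent isocitrate dehydrogenase, had 679.58 TPM in replicate 1 and 872.04 TPM in replicate 2, and Nnt, the proton-driven transhydrogenase of the inner membrane, had 188.75 and 166.08 TPM. C57BL/6J mice are known to carry a deletion in Nnt that removes the working enzyme, so its TPM is a transcript level only. Me3, a mitochondrial malic enzyme, had 52.40 and 56.46 TPM, and Taldo1 of the pentose phosphate pathway had 43.77 and 62.76 TPM. All 12 genes of this list reached 1 TPM in both libraries. At 2-fold, 1 of 12 was lower in replicate 1, beside 3.85% of all genes, and none was higher, beside 1.19%. The lower gene was Tkt, transketolase, with 20.30 TPM in replicate 1 and 57.81 TPM in replicate 2. The list's median log2 ratio was -0.17.

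In the list of NRF2 control and iron storage genes, all 10 reached 1 TPM. Fth1, ferritin heavy chain, led with 956.29 and 1288.55 TPM, and Ftl1, ferritin light chain, was second by mean level, with 175.46 TPM in replicate 1 and 478.68 TPM in replicate 2. Nfe2l1, a relative of Nfe2l2, had 184.40 and 212.59 TPM, and Sqstm1, an autophagy receptor that binds KEAP1, had 78.71 and 106.13 TPM. Ftl1 was the 1 gene of 10 past 2-fold, lower in replicate 1, beside 3.85% of all genes. It came inside the limit after the GC subtraction with a log2 ratio of -0.91. Ferritin genes have near-identical copies in the genome, so their counts are uncertain. The list's median log2 ratio was -0.22.

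Of 13 glutathione transferases, all reached 1 TPM. None was 2-fold apart, beside 3.85% of all genes lower in replicate 1 and 1.19% higher, shares at which so short a list would hold few. Mgst3, a microsomal form, led with 275.33 and 460.14 TPM, followed by Gstm1 with 167.23 and 228.45 TPM, Gstp1 with 170.23 and 222.07 TPM and Gstm2 with 97.84 and 89.56 TPM. Mgst3 stood above every peroxiredoxin in both libraries. Members of this family resemble one another in sequence, so reads may be divided among them. The list's median log2 ratio was -0.09.

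Of 13 other selenoproteins, 12 reached 1 TPM, with a median log2 ratio of -0.02. None was 2-fold apart, beside 3.85% of all genes lower in replicate 1 and 1.19% higher. The highest of these selenoproteins was Selenow at 109.07 and 171.98 TPM. Selenop, the selenium carrier of plasma, had 96.72 and 104.09 TPM, Msrb1 had 57.27 and 82.59 TPM, and Selenof had 54.07 and 49.68 TPM. The 8 genes of selenoprotein synthesis reached 1 TPM and none was 2-fold apart, beside the same shares of all genes, with a median of 0.03. All 8 were lower than the 4 selenoproteins just named. Pstk, which phosphorylates the serine on the selenocysteine transfer RNA, had 20.63 and 28.20 TPM. Sephs2 had 10.76 and 9.64 TPM, Secisbp2 had 7.20 and 8.09 TPM and Scly had 6.39 and 7.64 TPM.

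Of 17 other thiol redox genes, 16 matched by symbol and 15 could be compared, with a median log2 ratio of 0.12. None was 2-fold apart, beside 3.85% of all genes lower in replicate 1 and 1.19% higher. Txnip, the thioredoxin-interacting protein that inhibits thioredoxin, had 254.45 TPM in replicate 1 and 266.64 TPM in replicate 2, above both thioredoxin genes in each library. Pdia3, a disulfide isomerase of the endoplasmic reticulum, had 26.41 and 51.48 TPM, while its counts ran the other way, 3112 in replicate 1 and 2483 in replicate 2 (log2 ratio 0.58). Msrb3 had 30.21 and 28.61 TPM and Sesn1 had 27.78 and 25.33 TPM. Of 15 other antioxidant genes, 11 reached 1 TPM in both libraries and 13 could be compared, with a median log2 ratio of -0.22. Park7 had 70.27 and 78.20 TPM, Hagh had 43.88 and 69.49 TPM and Cyba had 21.80 and 48.98 TPM. In this list 2 of the 13 genes compared were at least 2-fold lower in replicate 1, beside 3.85% of all genes. Ucp2, a mitochondrial carrier abundant in immune cells, had 28.63 TPM in replicate 1 and 91.70 TPM in replicate 2, and after the GC subtraction its log2 ratio was -0.92, inside the limit. Gpx2, a peroxidase known from epithelia, had 0 counts in replicate 1 and 141 in replicate 2. The immune and lung epithelium markers given above moved in the same direction, and their part in these ratios was not tested.

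Some members share sequence with neighbours. On the opposite strand, exons of Gss overlap Acss2 by 395 nt, those of Hmox2 overlap Cdip1 by 892 nt, those of Prdx5 overlap Trmt112 by 409 nt, and those of Prdx2 overlap Junb by 173 nt and Rnaseh2a by 177 nt. The libraries are stranded, but whether the authors' counting used the strand is not stated, so reads from these overlaps cannot be assigned with certainty. Annotated processed copies named Txn-ps1, Prdx6-ps2 and Prdx2-rs3 had 0 counts in both libraries, and other copies of members were not examined.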

How the data were processed

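Poly(A)-selected RNA of mouse heart was measured in 2 libraries, placed in 1 group by the labels. The authors deposited tables of genes and transcripts on mm10 with GENCODE M4, per the accompanying notes. Neither the aligner nor the quantifier is named in those notes or in the labels. Expected counts, deposited as estimated fragments that need not be whole, per the file headers, were rounded for scaling and intervals. The TPM columns deposited by the authors, of which the maximum likelihood one is used and the posterior mean is an alternative, divide counts by effective length, and their deposited FPKM column also scales by depth, per the file headers.

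Symbols, GC content and coding sequences came from GENCODE M21, which matched 42462 of 43346 gene IDs (98.0%), and promoters from RefSeq on GRCm38.p6. A further 26248 numbered entries with 0 counts and 97 spike-in or control entries were left out. The mm9 lists of contigs and junctions, which name no library, were not used.

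Members were given as TPM with mean ± SD (n = 2). The ratio of the libraries used TMM factors of 0.957 and 1.04 from edgeR 4.0.16 in R 4.3.3, at least 20 counts, 0.5 CPM added and exact 95% binomial intervals, with no p-value. GC correction subtracted the median of 50 classes of GC content. DESeq2 1.42.0 size factors were an alternative. The ratio was tested on simulated data. Tables and figures were made in Python 3.11.15 with scipy 1.17.1, pandas 2.3.3, matplotlib 3.10.9 and numpy 2.4.6. The labels do not say whether the replicates came from separate litters, and both carry 1 donor record, so the spread between them may hold technical differences as well as those between animals. The libraries also differ in Xist and Y-linked counts, which cannot be told apart from replicate.

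Members, compartments, pairs and lists were chosen with earlier results of these data known. Named genes are all members, the 4 genes of highest mean TPM in each pathway list, and list genes past 2-fold. Glrx4 matched no gene and was not analysed here. Txn-ps1, Prdx6-ps2 and Prdx2-rs3 were added after values were seen.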

Additional observations from a re-analysis of the deposited data

How the results depend on the processing

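No paired analysis was possible because there is 1 group and its 2 replicates have nothing to be paired with. All 35 members stayed at or above the detection limit under every alternative, including each library alone (35 to 35). The log2 ratio of mitochondrial over cytosolic medians was 1.05 to 1.68 with either library left out, and 0.55 by estimated counts not divided by length. No setting left out the cytosolic genes that have no mitochondrial partner among the pairs. The log2 ratio of the sums was -0.37 to -0.20 with either library left out. It was 0.84 with the 5 members of both compartments counted as mitochondrial and -1.26 with them as cytosolic, 0.41 by estimated counts and 0.060 with protein-coding transcripts only, a setting chosen after seeing the data. The first 3 of these follow from the classes and from gene length, and for the last the share of non-coding Prdx2 and Prdx6 transcripts stands in the text above. By estimated counts, 4 pairs reversed: Sod2 over Sod1 (2.03), Txnrd2 over Txnrd1 (-0.60), Gclm over Gclc (-0.16) and Cat over Gpx1 (0.97). The members lower in replicate 1 numbered 3 at 1.5-fold, 2 by deposited TPM, 0 after GC correction and 0 by TPM without genes of the mitochondrial genome, and 1 was higher at 1.5-fold. Of all genes, 1952 were lower and 1524 higher at 1.5-fold, 1179 and 462 with a pseudocount of 0.1, and 376 and 119 with a pseudocount of 1. The genes higher numbered 104 after GC correction, 113 by TPM and 489 by TPM without genes of the mitochondrial genome. The median of all genes was -0.12 by TPM and 0.16 by TPM without those genes, against 0.01 with TMM scaling. The cause was not tested. Each member had at least 263 counts in a library.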
